A study of Mus musculus with 18 samples.

Results

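Gene expression of 2 TFEB mutant clones of WEHI-231 cells, #A-59 and #B-20, was compared with that of parental cells after 6 h of BCR stimulation. The comparison rests on the 6 libraries of this time point, chosen by their labels from the 18 libraries of the series, with 2 libraries for each of the 3 genotypes. WEHI-231 is a murine IgM+ B cell lymphoma line derived from a BALB/c×NZB mouse. Parental cells (labeled WT), TFEB KO #A-59 and TFEB KO #B-20 were all stimulated for 6 h with F(ab')2 fragments of anti-IgM at 10 µg/ml, so that stimulation itself was shared by all groups. The remaining 12 libraries are of the same 3 genotypes at 0 h (unstimulated) and 18 h. Each mutant is 1 clone grown from a single cell after electroporation of Cas9 with Tfeb-directed guide RNAs. No TFEB-intact clone was analyzed here, so that an effect of the mutation and a difference between any clone and the parental pool cannot be told apart. The question of the comparison is which genes of BCR-activated cells depend on TFEB.

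TFEB is a basic helix-loop-helix leucine zipper factor of the MiT/TFE family, together with TFE3, MITF and TFEC. It binds E-box DNA and is best known for driving genes of lysosomes and autophagy after it moves from the cytosol into the nucleus. In B cells, ligation of the BCR activates SYK, BTK, phospholipase C, calcium and MAP kinase signals, and in WEHI-231 cells anti-IgM without help from CD40 leads to growth arrest and apoptosis.

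The 6 libraries held 22416854 and 24059996 counts in parental cells, 25982014 and 16328945 in #A-59, and 20025225 and 15733691 in #B-20, in the order of replicates 1 and 2. Values below are given in the same order, as CPM, read counts scaled to library size with the TMM factors of edgeR. Adjusted p-values come from the quasi-likelihood test of edgeR, after Benjamini-Hochberg correction over all genes tested. Replicates of parental cells correlated with r = 0.9949 across genes (log2 CPM), those of #A-59 with 0.9893 and those of #B-20 with 0.988. The chi-square per gene between replicates was less even, at 54.01 for #B-20, 31.27 for #A-59 and 3.438 for the parental libraries. The fit shares 1 estimate of the spread per gene among all groups, so that p-values of the clones do not reflect this inequality. The #A-59 libraries stood apart from each other by the GC content of the genes. The difference of replicate 2 minus replicate 1 followed GC content with Spearman's rho = −0.675 across 8921 genes, against 0.0105 in parental cells and 0.158 in #B-20. Fold changes followed GC content in opposite directions, with rho = 0.196 for #A-59 and −0.271 for #B-20 across 15201 genes. All 10 B cell markers examined were detected and none was called in either clone, with summed levels of 6894 to 7089 CPM in parental, 8866 to 9608 CPM in #A-59 and 7515 to 7845 CPM in #B-20. Summed markers of T and NK cells amounted to 58.1 to 98.3 CPM, nearly all from Cd8b1, with Thy1 and Cd28 at 0. Myeloid markers summed to 10.2 to 11.3, 19.0 to 19.4 and 8.27 to 8.43 CPM in the 3 genotypes, with Cd14, S100a8 and S100a9 at 0, and endothelial and fibroblast markers to 22.8 to 24.7, 58.1 to 64.3 and 39.6 to 42.9 CPM, mostly from Pecam1. Erythroid markers, mostly Epor, summed to 14.9 to 16.7, 7.61 to 10.1 and 6.47 to 6.60 CPM, with Hbb-bs and Hbb-bt at 0. The part of these values in the results below was not tested. In bulk RNA, fewer cells that express a gene and less of its RNA per cell cannot be told apart.

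Tfeb transcripts were reduced in both clones but remained abundant. Tfeb (ENSMUSG00000023990, chromosome 17 of GRCm38 from 47737037 to 47792416) was at 84.3 and 83.6 CPM in parental cells, 30.4 and 29.8 CPM in #A-59, and 45.4 and 50.6 CPM in #B-20. The groups did not overlap. The log2 fold change was −1.48 in #A-59 (SE 0.11, edgeR adjusted p = 8.9e-09) and −0.81 in #B-20 (SE 0.11, edgeR adjusted p = 1.67e-05), the latter within the fold threshold. Counts per gene do not show which sequence the remaining transcripts carry. Of the related factors, Tfe3 stayed between 34.4 and 38.0 CPM in all 6 libraries. Mitf was low throughout, at 1.70 and 1.96 CPM in parental cells, 3.94 and 3.86 CPM in #A-59, where it was called higher (log2 fold change 1.09), and 2.46 and 2.48 CPM in #B-20 (0.43). Tfec had 0 counts in every 6 h library.

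Genes were called as differentially expressed (DEGs) when the FDR was under 0.01 and the absolute log2 fold change exceeded 1. Clone #A-59 had 1212 DEGs, or 7.91% of the 15318 genes tested, of which 655 (4.28%) were higher and 557 (3.64%) lower than in parental cells. Clone #B-20 had 1031 DEGs (6.73%), 441 higher (2.88%) and 590 lower (3.85%). Both clones moved in the same direction at 519 genes (3.39%), which make up 42.8% of the #A-59 list and 50.3% of the #B-20 list. Of these, 234 (1.53% of all genes) were higher and 285 (1.86%) lower in both. Another 29 genes (0.189%) were DEGs in opposite directions. The 2 comparisons share the parental libraries, so that their fold changes are not independent. With a GC correction of each library the shared set held 543 genes, among them 493 of the 519.

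**Figure D1:**
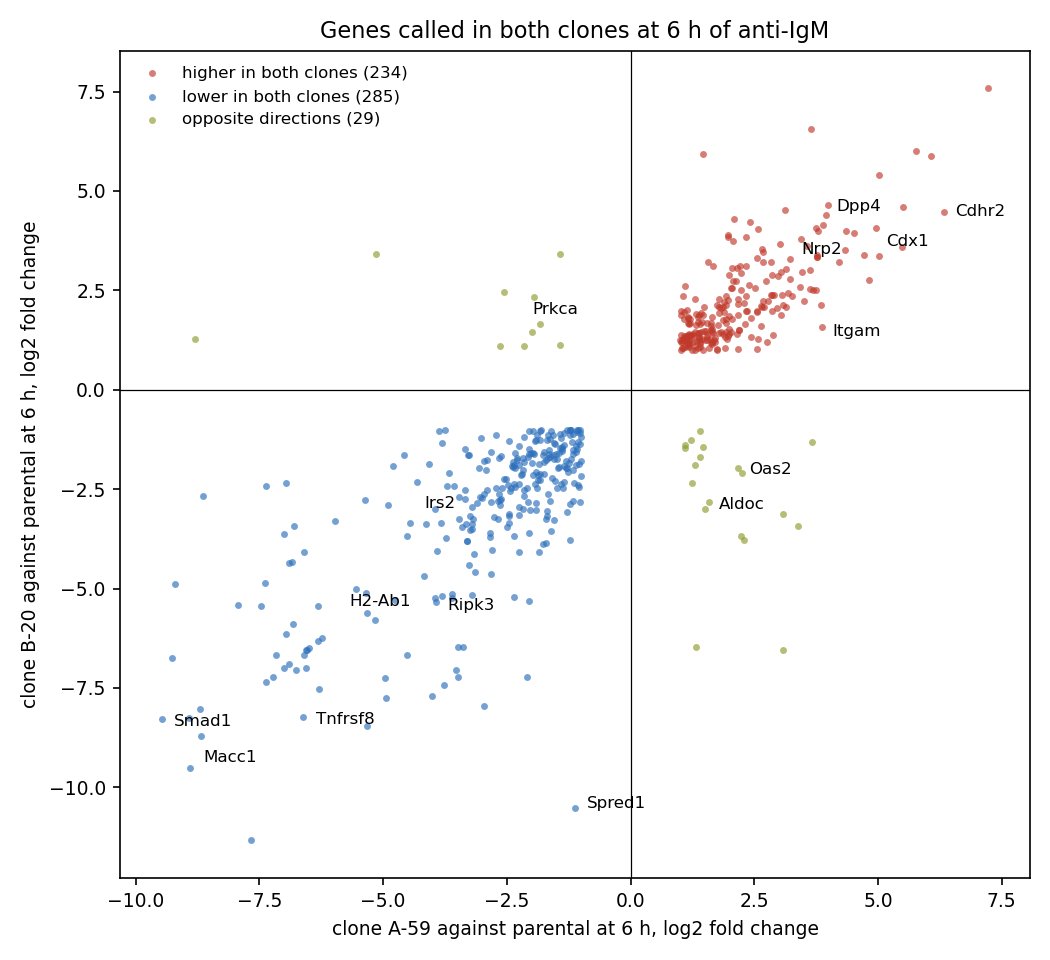
Log2 fold changes at 6 h of #A-59 (horizontal axis) and #B-20 (vertical axis) against the same parental libraries, with 1 point for each of the 234 genes higher in both, 285 lower in both and 29 in opposite directions. Lower genes reach further from 0 than higher genes, with 140 against 83 beyond a log2 change of 2 in both clones, and fitted values of genes with almost no counts in a clone, such as Spred1 in #B-20, are not bounded.

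Shared losses were deeper than shared gains. The smaller of the 2 absolute log2 fold changes had a median of 1.97 among lower genes and 1.59 among higher genes. It exceeded 4 at 43 lower and 7 higher genes. Of the lower genes, 42 had at most 3 counts in every clone library, and of the higher genes 12 had at most 3 counts in both parental libraries. Most of the shared genes were expressed at modest levels, with a median of 7.31 CPM for lower and 10.4 CPM for higher genes in the group where they were highest. Protein-coding genes made up 88.4% of the lower and 83.8% of the higher genes, against 79.1% of all genes tested. Between the clones themselves, 891 genes (5.82%) were DEGs, 335 higher and 556 lower in #B-20, and 83 of them belonged to the shared set.

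Much of the shared set was already present without stimulation. Of the 234 higher genes, 114 were also called higher in both clones at 0 h (48.7%, and 78.1% of the 146 genes called so at 0 h). Of the 285 lower genes, 157 were called lower in both at 0 h (55.1%, and 74.1% of 212). At 18 h, 98 of the higher genes (41.9%) and 145 of the lower genes (50.9%) were still called in both. A call in neither clone at 0 h was found for 75 higher and 78 lower genes, and none was called in the opposite direction at 0 or 18 h. In parental cells between 0 and 18 h, 24.4% of the shared higher genes rose and 6.41% fell, and 18.6% of the shared lower genes rose and 10.9% fell, against 5.56% and 4.75% of all genes tested.

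At a small number of genes the clone difference itself changed with stimulation. An interaction test of the 6 h difference against the 0 h difference called 52 genes in #A-59 (0.339% of those tested, 21 higher and 31 lower) and 20 in #B-20 (0.131%, 7 higher and 13 lower). Of these, 12 genes were called in both clones in the same direction, 10 of them negative and 2 positive. Scd4, a stearoyl-CoA desaturase that makes monounsaturated fatty acids (chromosome 19 from 44333326 to 44346743), was at 0.759 and 1.08 CPM in unstimulated parental cells and at 26.8 and 28.2 CPM after 6 h. In #A-59 it was at 0.914 and 1.24 CPM before and 1.10 and 0.906 CPM after stimulation, and in #B-20 at 0.402 and 0.62 CPM before and 0.64 and 0.784 CPM after. No clone library thus reached the parental 6 h level, and the clones at 6 h did not exceed their own range at 0 h by more than a fraction of 1 CPM. The difference changed by −4.96 on the log2 scale in #A-59 (SE 0.37, edgeR adjusted p = 1.1e-06) and −4.46 in #B-20 (SE 0.52, edgeR adjusted p = 0.000426).

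Alcam, the adhesion molecule CD166 that binds CD6 on T cells (chromosome 16 from 52248996 to 52453081), was at 2.89 and 3.27 CPM in parental cells before and 57.1 and 64.6 CPM after 6 h of anti-IgM. The clones started from 1.76 and 1.86 CPM (#A-59) and 2.41 and 2.36 CPM (#B-20) and were at 6.63 and 9.24 CPM and at 9.70 and 10.1 CPM after 6 h. Higher levels at 6 h than at 0 h were thus seen in all 3 genotypes, 7.77-fold lower in #A-59 and 6.14-fold lower in #B-20 than in parental cells at 6 h. The change of the difference was −2.19 in #A-59 (SE 0.37) and −2.25 in #B-20 (SE 0.38). At 18 h parental cells were back at 7.58 and 9.08 CPM. The interaction call of Alcam was lost without any single 6 h library but #A-59 replicate 2.

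Lztfl1, which controls traffic of the BBSome to cilia (chromosome 9 from 123694404 to 123717625), was at 26.9 and 23.8 CPM in unstimulated parental cells, 91.8 and 98.1 CPM after 6 h, and 118.0 and 116.0 CPM after 18 h. All 12 clone libraries of the 3 times stayed between 11.1 and 20.7 CPM. The change of the difference was −1.89 in #A-59 (SE 0.22) and −2.09 in #B-20 (SE 0.23). Irs2, an adaptor of the insulin and IL-4 receptors (chromosome 8 from 10984681 to 11008929), rose in parental cells from 160.0 and 163.0 CPM to 370.0 and 404.0 CPM within 6 h. In #A-59 it was at 36.7 and 32.3 CPM before and 41.8 and 40.2 CPM after stimulation, and in #B-20 at 40.0 and 36.7 CPM before and 46.6 and 38.3 CPM after. Irs2 was therefore lower in the clones before stimulation, and the gap widened by 1.02 and 1.11 on the log2 scale. Mreg, melanoregulin, which acts in transport of lysosome-related organelles, was at 17.5 and 15.5 CPM in unstimulated and 37.4 and 42.9 CPM in 6 h parental cells, and between 4.81 and 7.58 CPM in all clone libraries of both times. The interaction call of Mreg was lost without any single 6 h library but #A-59 replicate 2, and that of Irs2 without either parental library, #A-59 replicate 2 or #B-20 replicate 2.

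**Figure D2:**
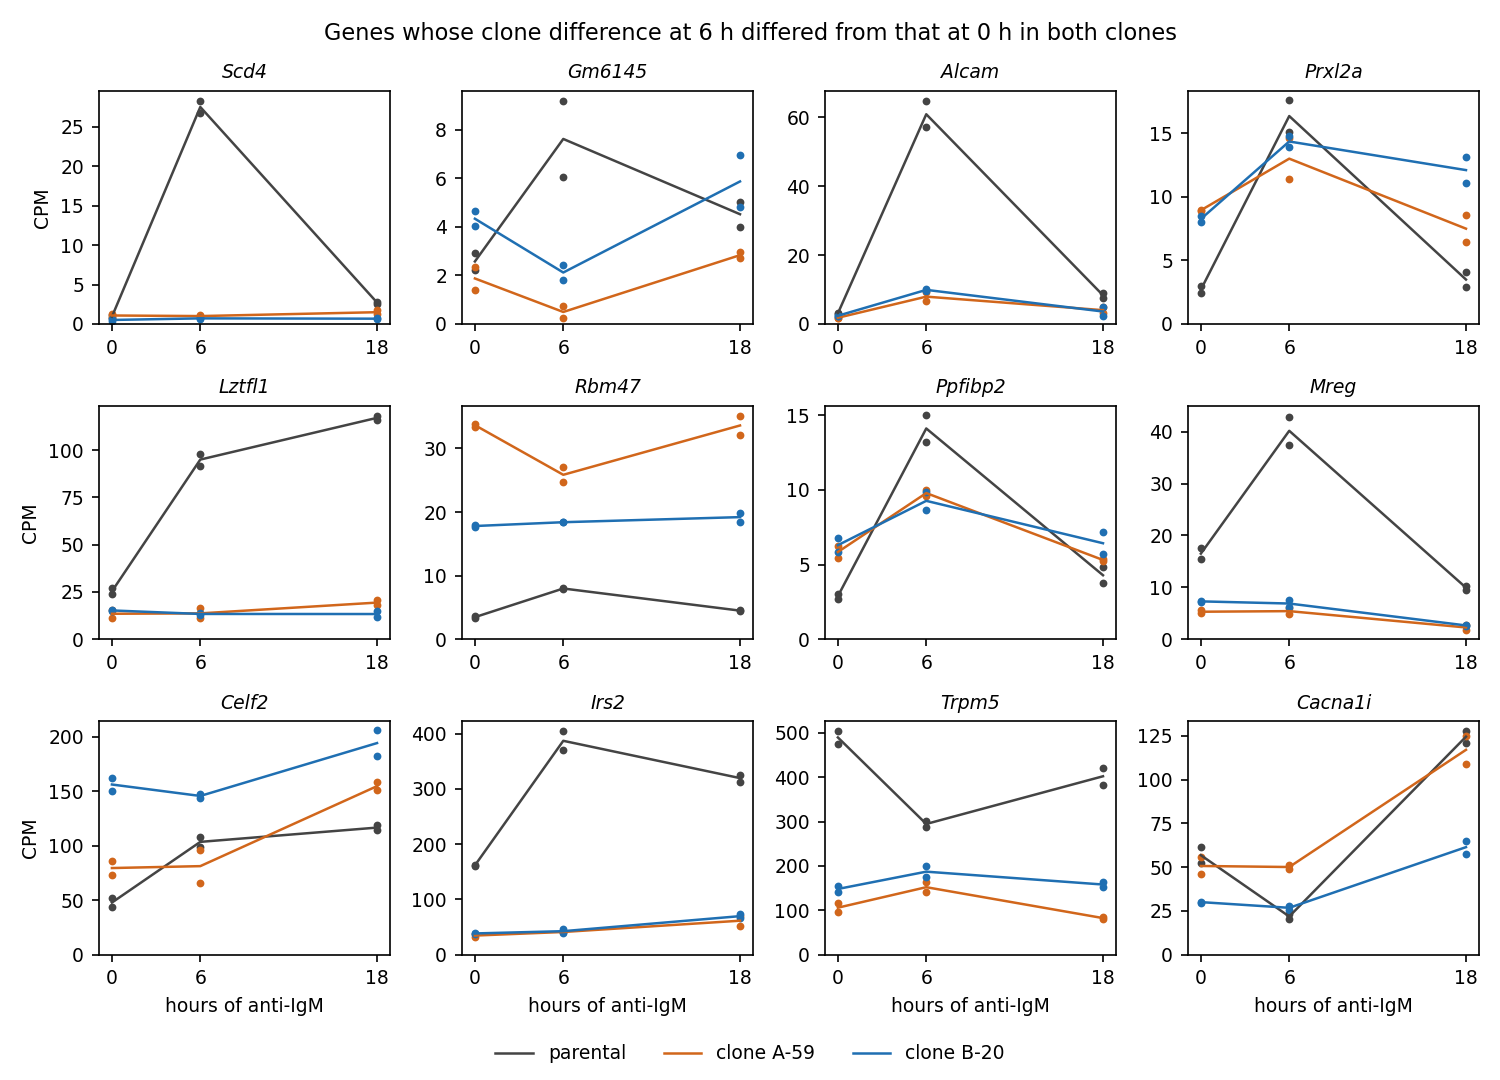
Levels in CPM (vertical axes, linear, each starting at 0) at 0, 6 and 18 h of anti-IgM (horizontal axes) of the 12 genes whose clone difference changed between 0 and 6 h in both clones, with 1 point for each library and lines through the mean of 2 libraries. Scd4, Alcam, Lztfl1, Irs2 and Mreg are high at 6 h in parental cells and far lower in both clones, whereas Prxl2a and Ppfibp2 were called in both clones before stimulation and in neither at 6 h.

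The other 7 genes differed in where the change arose. Prxl2a, a peroxiredoxin-like redox protein, was at 15.1 and 17.6 CPM in parental cells at 6 h and between 11.4 and 14.8 CPM in the clones. At 0 h it was at 2.42 and 2.98 CPM in parental cells and 8.03 to 8.97 CPM in the clones, so that the clones were called higher before stimulation and not called at 6 h. The same order held for Ppfibp2, a liprin scaffold. Celf2, an RNA-binding splicing factor, was called higher at 0 h in #B-20 only and at 6 h in neither clone. Rbm47, another RNA-binding protein, stayed higher in both clones at 6 h, at 27.0 and 24.7 CPM in #A-59 and 18.4 in both #B-20 libraries against 7.95 and 8.02 CPM, but by less than at 0 h. The predicted gene Gm6145 was at 6.07 and 9.17 CPM in parental cells and at most 2.42 CPM in every clone library at 6 h. The ion channel genes Trpm5 (a calcium-activated cation channel) and Cacna1i (a T-type calcium channel) gave the positive values, 1.25 and 1.36 in #A-59 and 1.07 and 1.22 in #B-20. Their parental levels at 6 h, 287.0 and 302.0 CPM for Trpm5 and 20.3 and 23.3 CPM for Cacna1i, were below those at 0 h, 474.0 and 505.0 CPM and 52.1 and 61.5 CPM. Without parental replicate 1 the interaction calls of Celf2, Rbm47, Trpm5 and Cacna1i were lost, and without parental replicate 2 those of Celf2, Rbm47, Ppfibp2, Prxl2a and Gm6145. Celf2, Rbm47, Prxl2a and Gm6145 also lost them without #B-20 replicate 2, Celf2, Trpm5 and Gm6145 without #B-20 replicate 1, and Celf2 without #A-59 replicate 1. When single 6 h libraries were left out, Scd4 and Lztfl1 were called in both clones each time, and the number of genes called in both lay between 4 (without parental replicate 2) and 16 (without #A-59 replicate 2).

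Because TFEB binds E-boxes, the letters CACGTG were searched, on either strand since the motif is its own reverse complement, in RefSeq promoter windows of GRCm38.p6 from 250 bases before to 50 bases after a start. Such windows were matched for 207 of the shared lower, 161 of the shared higher and 10243 of all tested genes. The motif was in at least 1 window of 11.6% of the lower, 6.83% of the higher and 11.5% of all genes. The longer TCACGTG, which contains the first motif and was counted on both strands, was in 4.83%, 4.35% and 6.82%. The shares of the lower genes were thus close to or below those of all genes. Of the genes described in detail here, the motif was found in the windows of Irs2, Lztfl1, Radx, Tnfrsf8, Ripk3 and Lgmn among the lower and Sgk1, Arhgap15 and Ceacam1 among the higher ones. The stretches upstream of the start are shown for 4 of the lower genes, with CACGTG in capitals, read 5′ to 3′ along the strand of the gene. Irs2 lies on the minus strand at chr8:11008956-11008985, Lztfl1 on the minus strand at chr9:123717655-123717684, Lgmn on the minus strand at chr12:102439124-102439153 and Ripk3 on the minus strand at chr14:55788901-55788930.
Irs2: gtaacgcagagtCACGTGttgttttgctct
Lztfl1: aacatcatccgtCACGTGacactgagagcc
Lgmn: tggaatgtctgtCACGTGgtccattttata
Ripk3: gcagtttcaaggCACGTGcacaggaaatag
In Irs2, Lztfl1 and Lgmn the letters are part of TCACGTG and begin 44, 47 and 49 bases before the start, and in Ripk3 they begin 61 bases before it. A match of letters does not show that a factor binds there.

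The genes with the most extreme shared differences were ranked by the smaller of the 2 absolute log2 fold changes, among genes with a mean of at least 5 CPM in the higher group. At the top of the lower genes was Macc1, a regulator of the gene of the MET receptor, with 551 and 631 counts in parental cells, 1 and 1 in #A-59, and 0 and 1 in #B-20. Smad1, the transducer of BMP receptors (chromosome 8 from 79338395 to 79399428), was at 534.0 and 593.0 CPM in parental cells, 0.151 and 1.75 CPM in #A-59, and 0.738 and 3.14 CPM in #B-20. Radx, a single-strand DNA-binding protein of replication forks, was at 133.0 and 147.0 CPM in parental cells and below 1 CPM in all 4 clone libraries. These 3 genes were also lower in both clones at 0 and 18 h, so that their transcripts were nearly lost from the clones at every time. The same was true of Vwf (von Willebrand factor), Tnfrsf8 (CD30), Serpinb6b (a protease inhibitor) and Kifc3 (a kinesin), and of the uncharacterized Gm12495, Gm43497 and A230107N01Rik. Kifc3 was at 97.6 and 99.7 CPM in parental cells, 1.17 and 0.785 CPM in #A-59, and 0.935 and 0.98 CPM in #B-20. Its parental mean at 0 h was 9.97 CPM, and the interaction was −3.23 in #B-20 (edgeR adjusted p = 0.00225) and −2.02 in #A-59 (edgeR adjusted p = 0.0456).

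Fibcd1 and Il1rn were exceptions in time. Fibcd1, a receptor for acetylated sugars, had 284 and 444 counts in parental cells at 6 h, 3 and 0 in #A-59 and 0 and 0 in #B-20. This makes it at least 89.0-fold lower in #B-20 with 3 counts per library as the floor. Il1rn, the antagonist of the IL-1 receptor, had 270 and 273 counts in parental cells, 3 and 3 in #A-59, and 0 and 2 in #B-20. Unstimulated parental cells had a mean of only 0.0207 CPM of Fibcd1 and 0.233 CPM of Il1rn, and neither gene was called at 0 or 18 h. The interaction was not called for them, with adjusted p-values of edgeR of 0.297 in both clones for Fibcd1 and of 0.653 and 1 for Il1rn. In that test both clones at both times and parental cells at 0 h were near 0 counts.

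**Figure D3:**
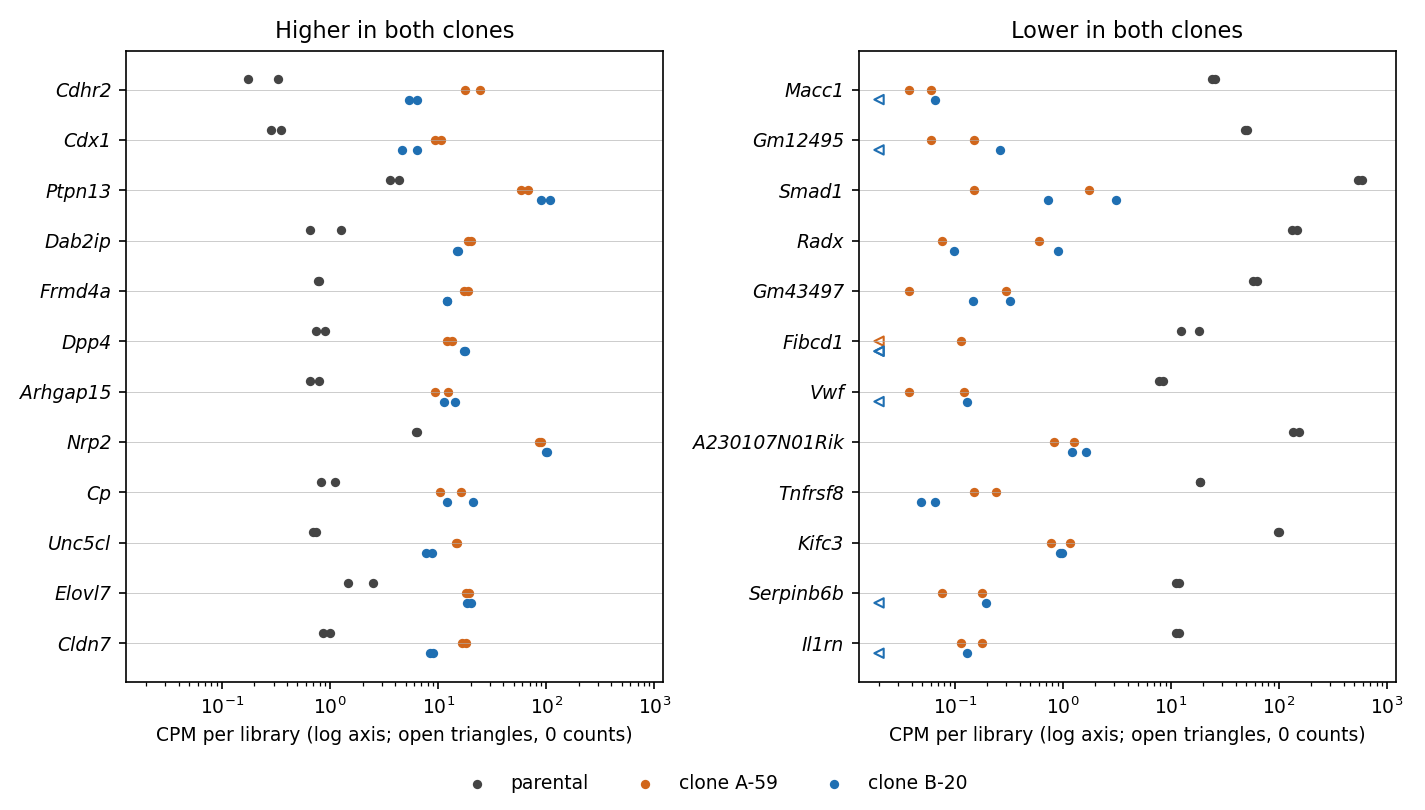
Levels at 6 h of the 12 highest-ranked genes in each direction, in CPM on a log axis, with 1 point for each library and open triangles at the left edge for libraries with 0 counts. The genes were chosen for their difference between parental cells and both clones, so that the separation of parental from clone points largely follows from this choice.

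Among the ranked higher genes, Cdhr2, a protocadherin of the brush border, had 4 and 8 counts in parental cells and rose to 24.2 and 17.6 CPM in #A-59 and 5.32 and 6.34 CPM in #B-20. Cdx1, an intestinal homeobox factor, rose from 0.35 and 0.286 CPM to 10.6 and 9.42 CPM in #A-59 and 4.68 and 6.34 CPM in #B-20. Cldn7, a tight junction claudin, rose from 1 and 0.859 CPM to 18.2 and 16.5 CPM and to 8.47 and 9.01 CPM. Ptpn13, a tyrosine phosphatase, was at 4.37 and 3.60 CPM in parental cells, 67.8 and 58.7 CPM in #A-59, and 108.0 and 90.1 CPM in #B-20. Dab2ip (a GAP of Ras) and Arhgap15 (a GAP of Rac) rose between 14.8-fold and 20.4-fold, and Frmd4a, a scaffold with a FERM domain, 22.9-fold in #A-59 and 15.3-fold in #B-20. Elovl7, an elongase of fatty acids, rose from 2.49 and 1.47 CPM to between 18.0 and 20.2 CPM in the clones, Cp (ceruloplasmin) from 0.83 and 1.10 CPM to between 10.5 and 21.0 CPM, and Unc5cl from 0.699 and 0.737 CPM to between 7.78 and 14.9 CPM. All 12 were also called higher in both clones at 0 and 18 h.

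Pathways were followed with 37 lists of genes, described here by counts and by medians of the log2 fold change, next to 3.39% of all tested genes called in both and medians of −0.005 (#A-59) and 0.008 (#B-20) over all tested genes.

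**Figure D4:**
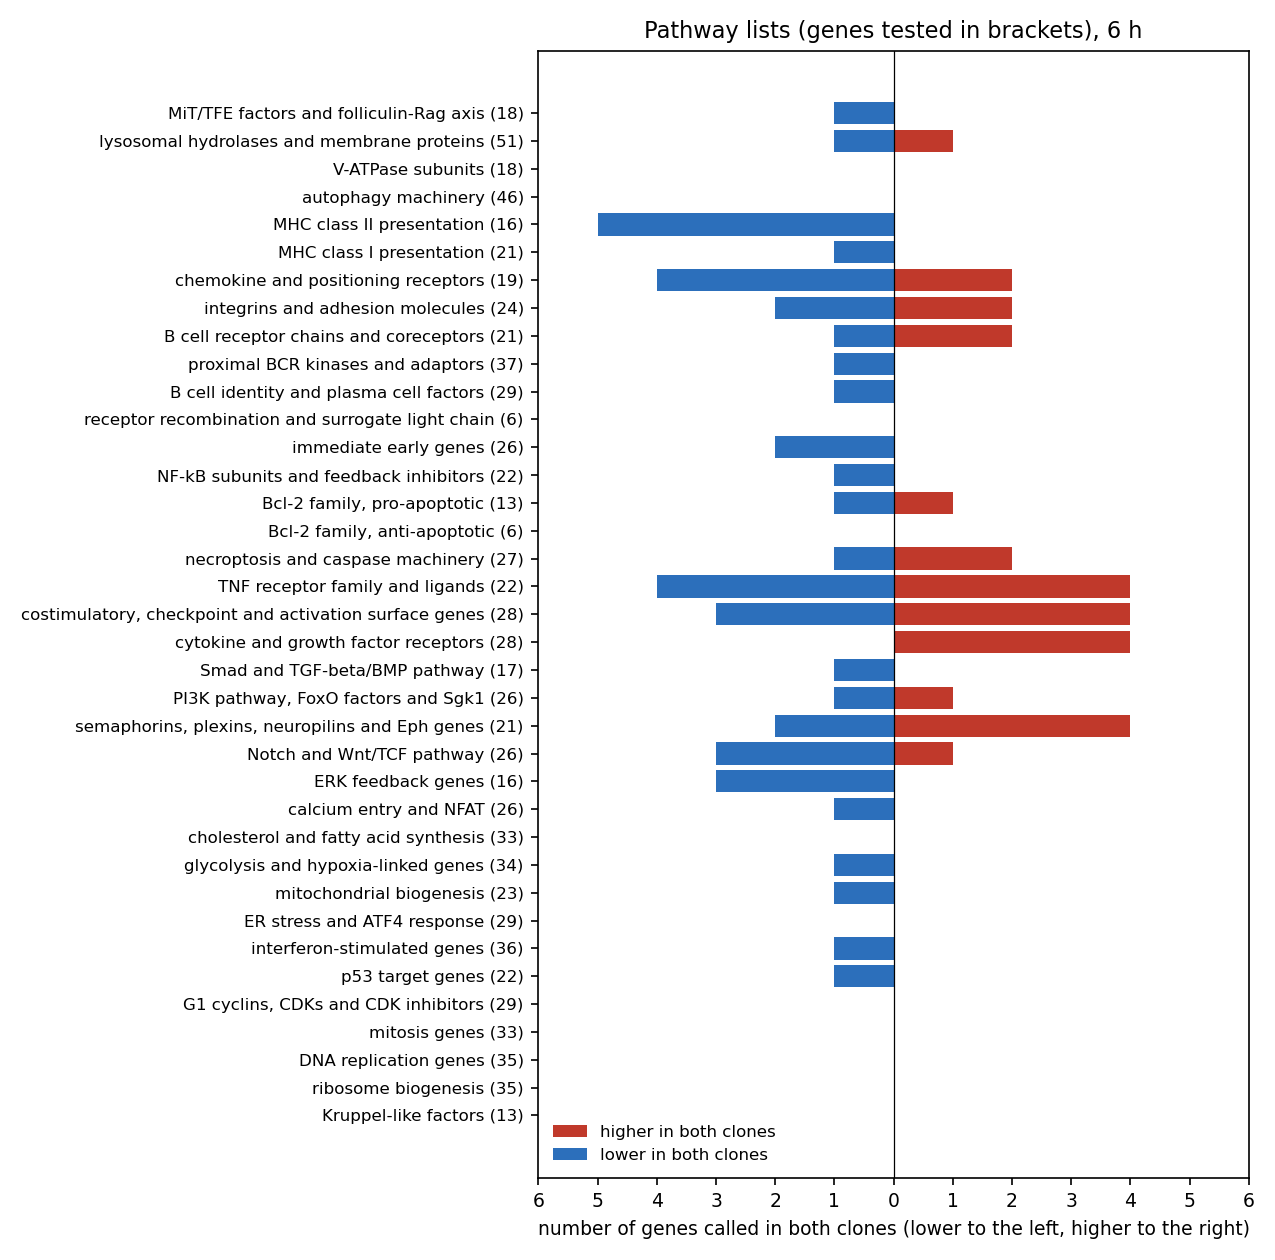
Number of genes called lower (bars to the left) and higher (bars to the right) in both clones at 6 h in each of the 37 lists, with the number of genes tested in brackets. MHC class II (5 lower), the TNF receptor family (4 higher and 4 lower) and chemokine receptors (2 higher and 4 lower) hold the most calls for their size, whereas autophagy, V-ATPase, cholesterol synthesis, mitosis and replication hold 0.

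Genes of lysosomes and autophagy are the best-known targets of TFEB. Of 46 tested genes of the autophagy machinery and 18 subunits of the V-ATPase, the proton pump of lysosomes, 0 were called in either clone. At the shares of all tested genes, few calls would fall among 18 subunits. Median log2 fold changes in #A-59 and #B-20 were 0.14 and 0.02 for the autophagy genes and 0.17 and −0.10 for the V-ATPase subunits. The V-ATPase subunit gene Atp6v0e2, chosen after its values were seen, had 7 and 11 counts in parental cells, 0 and 2 in #A-59, and 9 and 8 in #B-20, and missed the threshold in #A-59 (edgeR adjusted p = 0.0573). Of 51 lysosomal genes, 44 were called in neither clone and 3.92% in both, and the medians were 0.05 and −0.27. Lgmn, the asparaginyl endopeptidase legumain, fell in both clones, from 75.5 and 95.4 CPM to 39.7 and 35.9 CPM in #A-59 and 12.3 and 12.1 CPM in #B-20. Ctse, the aspartic protease cathepsin E, rose in both, from 3.71 and 4.54 CPM to 11.6 and 11.5 CPM and to 16.7 and 18.2 CPM. The largest same-sign differences among the genes not called were those of Snap29, a SNARE of autophagosome fusion (log2 fold change 0.97 and 0.68), Optn, an autophagy receptor (0.90 and 0.77), and the V-ATPase subunit gene Atp6v1h (−0.59 and −0.51). Of 18 genes of the MiT/TFE factors and the folliculin-Rag axis, which signals amino acids to mTORC1, Rragd alone was called in both, at 1.57 and 2.50 CPM in parental cells, 0.379 and 0.483 CPM in #A-59, and 0.591 and 0.131 CPM in #B-20. The call of Rragd was lost when #A-59 replicate 1, #B-20 replicate 2 or parental replicate 2 was left out.

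Of 16 tested genes of MHC class II presentation, 5 fell in both clones, with list medians of 0.06 in #A-59 and −0.80 in #B-20. The class II chain genes H2-Aa, H2-Ab1, H2-Ea and H2-Eb1 and their transactivator Ciita were lower in both, and 10 were called in neither clone. H2-Aa was at 92.4 and 123.0 CPM in parental cells, 9.51 and 11.2 CPM in #A-59, and 0.935 and 1.57 CPM in #B-20. H2-Eb1 was at 78.8 and 107.0 CPM, 30.4 and 26.9 CPM, and 9.25 and 10.4 CPM. H2-Aa, H2-Ea, H2-Eb1 and Ciita were lower in #B-20 than in #A-59 past the threshold, whereas the clone libraries overlapped at H2-Ab1 (0.53 and 0.362 CPM against 0 and 0.392 CPM). Ciita itself was at 18.5 and 25.2 CPM in parental cells, 9.24 and 9.42 CPM in #A-59 (log2 fold change −1.23, SE 0.16, edgeR adjusted p = 8.71e-06), and 1.43 and 1.76 CPM in #B-20 (−3.79, SE 0.21, edgeR adjusted p = 1.5e-10). The call of Ciita was lost without parental replicate 2. Cd74, the invariant chain (chosen after its values were seen), was at 660.0 and 731.0 CPM in parental cells, 740.0 and 678.0 CPM in #A-59, and 278.0 and 347.0 CPM in #B-20. It was thus called lower in #B-20 (−1.15) and not in #A-59 (0.03). H2-Ab1, H2-Aa and H2-Eb1 are neighbors on chromosome 17 between 34263227 and 34316674. Of 21 genes of MHC class I presentation, H2-M3, a nonclassical class I gene, was lower in both, at 5.46 and 4.62 CPM against 2.16 and 2.78 CPM in #A-59 and 1.72 and 0.98 CPM in #B-20, a call lost without parental replicate 1 or #A-59 replicate 1.

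**Figure D5:**
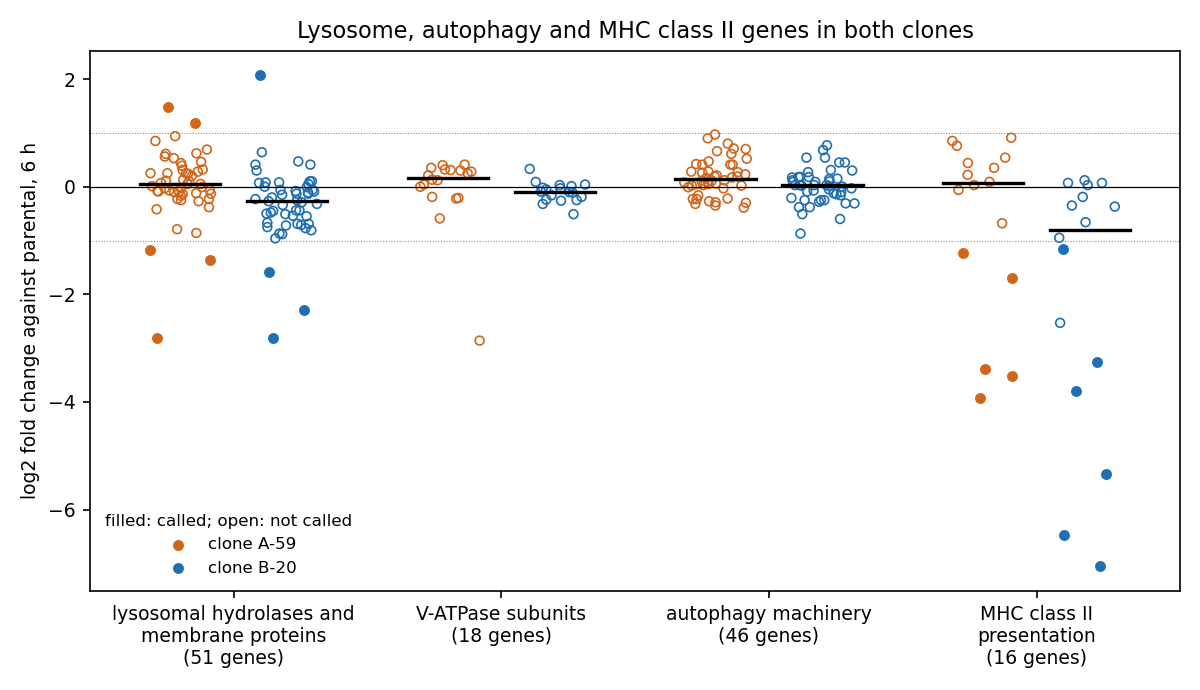
Log2 fold change against parental cells at 6 h (vertical axis) of each tested gene of 4 lists in #A-59 (orange) and #B-20 (blue), with filled points for called genes, open points for others and black bars at the medians. Lysosomal, V-ATPase and autophagy genes lie mostly between −1 and 1, and 5 MHC class II genes lie below −1 in both clones.

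Receptors that position B cells in lymphoid tissue moved in both directions. Of 19 tested, Ccr7, Cxcr4, Ccr1 and Ccr9 were lower and Gpr18 and Ackr4 higher in both clones. Cxcr4, the receptor of CXCL12, was at 72.2 and 69.4 CPM in parental cells, 18.0 and 12.3 CPM in #A-59, and 17.4 and 14.5 CPM in #B-20, or 4.62-fold and 4.43-fold lower. Ccr7, which guides cells toward the T cell zone, was at 6.33 and 7.82 CPM in parental cells, 0.568 and 0.725 CPM in #A-59, and 0.492 and 1.04 CPM in #B-20. Cxcr4 was lower in both clones at all times, whereas Ccr7 was called at 6 and 18 h and not at 0 h. The interaction of Ccr7 was −2.50 in #A-59 (edgeR adjusted p = 0.00536) and −2.13 in #B-20 (edgeR adjusted p = 0.0694). Gpr18, a lipid receptor of lymphocytes, was at 6.38 CPM in both parental libraries, 49.7 and 42.6 CPM in #A-59, and 31.9 and 35.0 CPM in #B-20. Ackr4, a scavenger of CCL19 and CCL21, had 4 and 11 counts in parental cells, 29 and 33 in #A-59, and 57 and 42 in #B-20, and its call was lost without parental replicate 1. Ccr1 and Ccr9 were at most 6.29 and 1.68 CPM in parental cells, and their calls were lost with the GC correction and without any one of 4 or more single libraries, that of Ccr9 also under DESeq2.

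Of 24 integrin and adhesion genes, 2 were higher and 2 lower in both. Itgb3, the integrin beta chain of the vitronectin receptor, was at 36.2 and 38.6 CPM in parental cells, 0.227 and 0.483 CPM in #A-59, and 0.295 and 1.04 CPM in #B-20. Cdh17, the LI-cadherin, was at 13.1 and 15.1 CPM in parental cells, 62.8 and 80.1 CPM in #A-59, and 68.5 and 75.6 CPM in #B-20. Itgb3 was thus nearly lost and Cdh17 5.04-fold and 5.09-fold higher. Itgam, the integrin chain CD11b, rose to 7.16 and 9.18 CPM in #A-59 and 1.43 and 1.89 CPM in #B-20 from 0.306 and 0.777 CPM, and differed between the clones (−2.30). Itgam is also a myeloid marker, with Cd14, S100a8 and S100a9 at 0 counts in all 6 libraries. Of the other myeloid markers, chosen after their values were seen, Csf1r was called higher in #A-59, with 7 and 8 counts in parental cells, 57 and 16 in #A-59, and 10 and 4 in #B-20. Fcgr3 had 10 and 13 counts, 29 and 16, and 16 and 22, and was called in neither clone (edgeR adjusted p = 0.0367 and 0.0435). The part of myeloid transcripts in the value of Itgam was not tested. The Itgam call was lost without parental replicate 1 or either #B-20 library. Madcam1, the ligand of integrin alpha4beta7, had 24 and 17 counts in parental cells, 0 and 1 in #A-59, and 2 and 2 in #B-20. Its call was lost under DESeq2 and without any single library but #A-59 replicate 2.

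Of 21 genes of BCR chains and coreceptors, 14 were called in neither clone. Siglecg and Ceacam1, both inhibitory receptors, were higher and Iglc1, a lambda light chain constant gene, lower in both. Siglecg was at 12 and 11.8 CPM in parental cells, 62.0 and 67.2 CPM in #A-59, and 39.4 and 43.8 CPM in #B-20. Ceacam1 was at 46.5 and 49.6 CPM, 95.4 and 113.0 CPM, and 115.0 and 110.0 CPM. Iglc1 fell from 3.76 and 4.99 CPM to at most 0.718 CPM in all clone libraries. Reads of the near-identical lambda constant genes may be split between them. The calls of Ceacam1 and of Tec, described next, were lost without #A-59 replicate 2. Of 37 proximal kinases and adaptors, Tec, a kinase related to BTK, was lower in both, at 34.2 and 40.5 CPM in parental cells, 17.4 and 12.9 CPM in #A-59, and 5.27 and 3.40 CPM in #B-20. Another 29 of the 37 were called in neither clone. Of 26 genes of calcium entry and NFAT, only Cracr2a, a regulator of calcium release-activated channels, was called in both (3.54 and 3.85 CPM against 1.06 to 1.63 CPM in the clones).

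Of 16 genes of ERK feedback, Spred1, Dusp4 and Rasal1, which restrain Ras or MAP kinases, were lower in both and 0 were higher. Rasal1, a GAP of Ras, was at 42.8 and 50.8 CPM in parental cells, 18.8 and 16.8 CPM in #A-59, and 16.2 and 17.2 CPM in #B-20. Spred1 was at 9.31 and 8.14 CPM in parental cells, 3.64 and 4.41 CPM in #A-59, and had 0 counts in both #B-20 libraries, which makes it at least 50.8-fold lower there. Dusp4, a MAP kinase phosphatase, fell from 5.37 and 4.42 CPM to 0.833 and 0.604 CPM in #A-59 and 2.76 and 1.57 CPM in #B-20. The list had medians of −0.18 in #A-59 and 0.01 in #B-20, so that the 3 genes do not stand for a shift of all 16. Of 26 immediate early genes, Dusp4 and Nr4a3, an orphan nuclear receptor, were lower in both, Nr4a3 at 3.98 and 3.97 CPM against 0.265 and 0.302 CPM and 1.92 and 1.11 CPM. Of 22 NF-kB subunits and inhibitors, Nfkbie, which encodes I-kappa-B epsilon, was lower in both, at 110.0 and 113.0 CPM in parental cells, 55.3 and 54.6 CPM in #A-59, and 55.5 CPM in both #B-20 libraries. Its log2 fold changes of −1.02 and −1 lay at the threshold, and the call was lost with the GC correction and without parental replicate 2. The calls of Nr4a3 and Dusp4 were lost without either parental library or #B-20 replicate 2, that of Dusp4 also under DESeq2, and that of Spred1 without parental replicate 1 or #A-59 replicate 1.

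Genes of cell death moved in both directions. Bcl2l15, a pro-apoptotic member of the Bcl-2 family also named Bfk (chromosome 3 from 103831036 to 103854618), was at 246.0 and 259.0 CPM in parental cells, 4.62 and 6.34 CPM in #A-59, and 8.22 and 7.32 CPM in #B-20. It was 47.0-fold and 32.4-fold lower and was similarly reduced at 0 and 18 h. Bmf, a BH3-only protein, was higher, at 19.2 and 20.7 CPM in #A-59 and 18.4 and 20.2 CPM in #B-20 against 6.60 and 7.24 CPM. The other 11 of 13 tested pro-apoptotic members were not called in both. Of 6 anti-apoptotic members 0 were called in both, and Bcl2 was called higher in #B-20 only. Bcl2l1, which encodes Bcl-xL, was at 7.08 and 5.69 CPM in parental cells, 5.30 and 5.07 CPM in #A-59, and 6.25 and 6.07 CPM in #B-20. Hrk had at most 2 counts in any of the 6 libraries. Ripk3, the kinase of necroptosis (chromosome 14 from 55784995 to 55788857), was at 17.3 and 19.2 CPM in parental cells, 1.40 and 0.845 CPM in #A-59, and 0.246 and 0.784 CPM in #B-20. Of 27 genes of necroptosis and caspases, the inflammasome sensor genes Naip5 and Naip6 were higher. Naip5 was at 1 and 1.10 CPM, 4.36 and 5.13 CPM, and 3.05 and 2.48 CPM, and Naip6 at 5.24 and 5.61 CPM, 9.54 and 12.9 CPM, and 11.5 and 10.8 CPM. Naip genes are near-identical copies whose reads may be split, and the call of Naip6 was lost with the GC correction and without parental replicate 1, #A-59 replicate 2 or #B-20 replicate 1. The call of Naip5 was lost without #B-20 replicate 1.

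The TNF receptor family had 8 of 22 tested genes called in both clones, 4 in each direction. Tnfrsf8 (CD30) had 431 and 457 counts in parental cells, 4 and 4 in #A-59, and 1 and 1 in #B-20. Tnfrsf22, a decoy receptor of TRAIL, had 164 and 182 counts, 6 and 4, and 0 and 1. Tnfrsf1b, the TNF receptor 2, was at 5.77 and 6.14 CPM, 1.55 and 1.27 CPM, and 0.246 and 0.784 CPM, and Tnfrsf9 (4-1BB) fell from 37 and 35 counts to at most 5 counts in any clone library. These 4 were therefore below 1 CPM in both #B-20 libraries. Cd40, the receptor of T cell help, was higher in both, at 60.9 and 51.6 CPM in parental cells, 126.0 and 110.0 CPM in #A-59, and 111.0 and 123.0 CPM in #B-20. Cd40 was not called in either clone at 0 h, where the parental mean was 202.0 CPM against 256.0 and 241.0 CPM in the clones. The interaction of Cd40 was called in neither clone. Ltb, lymphotoxin beta, was at 94.0 and 97.7 CPM, 211.0 and 179.0 CPM, and 205.0 and 240.0 CPM, with a called interaction in #B-20 (1.46). Tnfrsf18 (GITR) rose 3.12-fold and 2.23-fold, and Tnfrsf11a (RANK), with 3 and 10 counts in parental cells, 3.47-fold and 4.83-fold. Without #A-59 replicate 1 the calls of Cd40, Ltb, Tnfrsf9 and Tnfrsf11a were lost. Those of Ltb and Tnfrsf11a were also lost without parental replicate 1, that of Cd40 without parental replicate 2 or #B-20 replicate 2, and that of Ltb with the GC correction. Under DESeq2 the calls of Tnfrsf9 and Tnfrsf11a were lost.

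Of 28 costimulatory and activation genes, Dpp4 (CD26), Entpd1 (CD39), Fcer2a (CD23) and Cd84 were higher and Cd274, Havcr1 and Fcmr lower in both. Dpp4 was at 0.743 and 0.90 CPM in parental cells, 12.1 and 13.5 CPM in #A-59, and 17.2 and 17.8 CPM in #B-20. Cd274, the ligand PD-L1, was at 16.8 and 19.9 CPM, 2.35 and 2.23 CPM, and 2.61 and 2.94 CPM. Fcmr, the receptor of IgM Fc, was at 187.0 and 188.0 CPM, 42.2 CPM in both #A-59 libraries, and 33.7 and 32.2 CPM. The 3 lower genes thus fell by a log2 change of more than 2 in each clone. Havcr1 (TIM-1) fell from 10.4 and 7.04 CPM to between 0.345 and 1.99 CPM. Entpd1 rose 2.17-fold and 2.33-fold and Cd84, a SLAM receptor, 3.81-fold and 3.22-fold. Fcer2a rose 2.26-fold and 2.28-fold, but its call was lost without any single library except #B-20 replicate 1. The call of Cd84 was lost without either parental library or #B-20 replicate 2, and that of Havcr1 without #A-59 replicate 1.

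Of 28 cytokine and growth factor receptors, 4 were higher and 0 lower in both clones. Il5ra, which supports B cell growth through IL-5, was at 85.9 and 85.6 CPM in parental cells, 164.0 and 216.0 CPM in #A-59, and 202.0 and 221.0 CPM in #B-20. Il10ra was at 1.31 and 1.19 CPM, 18.2 and 17.6 CPM, and 4.53 and 6.53 CPM, and Ifngr1, a chain of the interferon gamma receptor, at 26.4 and 26.1 CPM, 59.1 and 61.7 CPM, and 67.5 CPM in both #B-20 libraries. Bmpr2, a receptor of BMPs, was at 9.13 and 9.62 CPM, 30.1 and 38.6 CPM, and 26.4 and 23 CPM. The BMP receptor was thus higher while Smad1, downstream of it, was nearly lost. Smad1 was the 1 gene called in both clones among 17 of the Smad pathway. Il7r had at most 1 count in any of the 6 libraries. The call of Il5ra was lost without #A-59 replicate 2.

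Guidance receptors had 6 of 21 tested genes called in both. Nrp2, a coreceptor of class 3 semaphorins and VEGF (chromosome 1 from 62703317 to 62818692), was at 6.25 and 6.34 CPM in parental cells, 86.1 and 88.8 CPM in #A-59, and 102.0 and 99.2 CPM in #B-20. This is 13.9-fold (log2 fold change 3.79, SE 0.15, edgeR adjusted p = 1.33e-12) and 16-fold (4, SE 0.15, edgeR adjusted p = 8.36e-13). The semaphorin receptors Plxnc1 (7.46-fold and 5.23-fold) and Plxna2 (3.19-fold and 2.40-fold) and Epha4 (2.72-fold and 3.27-fold) were also higher. Plxna1, another plexin, was 5.91-fold and 4.76-fold lower, and Ntn1, the guidance ligand netrin, 4.45-fold and 6.41-fold lower. Of 26 Notch and Wnt genes, Notch1 was higher, at 39.1 and 38.7 CPM in parental cells, 174.0 and 118.0 CPM in #A-59, and 80.5 and 79.2 CPM in #B-20. The Notch ligand genes Jag1 and Dll1 and the regulator Dtx1 were lower in both. Dtx1 was at 13.1 and 15.8 CPM, 3.60 and 2.66 CPM, and 1.53 and 2.16 CPM, and the call of Dll1, at most 1.35 CPM, was lost in 8 of 13 alternative settings. The call of Jag1 was lost without #A-59 replicate 1, parental replicate 2 or #B-20 replicate 2, and that of Epha4 without parental replicate 1, #A-59 replicate 1 or #B-20 replicate 2.

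Of 26 genes of the PI3K pathway and FoxO factors, Sgk1, a kinase activated downstream of PI3K, was higher, at 0.874 and 0.818 CPM in parental cells, 4.13 and 4.47 CPM in #A-59, and 12.4 and 12.1 CPM in #B-20. Trib2, a pseudokinase, was lower, at 44.0 and 53.4 CPM, 4.20 and 4.05 CPM, and 9.75 and 8.49 CPM. Of 34 glycolytic and hypoxia-linked genes, Pdk3, an inhibitory kinase of pyruvate dehydrogenase, was lower in both, 13.4-fold in #A-59 and 2.02-fold in #B-20, and differed between the clones (2.73). Of 23 genes of mitochondrial biogenesis, the coactivator gene Ppargc1a fell from 15 and 18 counts to 0 and 0 in #A-59, at least 4.72-fold, and to 0 and 1 in #B-20. Of 22 p53 targets, Ephx1, an epoxide hydrolase, fell from 27.8 and 29.6 CPM to 7.57 and 7.67 CPM and to 4.53 and 3.40 CPM. Runx2, a Runt factor, was the 1 shared gene of 29 B cell identity and plasma cell factors, at 9.22 and 12.7 CPM, 0.682 and 1.81 CPM, and 3.20 and 3.85 CPM. The call of Pdk3 was lost without #B-20 replicate 2, and that of Ppargc1a without any single library but #A-59 replicate 2 and under DESeq2.

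In the lists of G1 cyclins and CDK regulators (29 genes), mitosis (33), DNA replication (35), ribosome biogenesis (35), cholesterol and fatty acid synthesis (33), ER stress (29), receptor recombination (6) and Kruppel-like factors (13), 0 genes were called in both in the same direction. Medians lay between −0.44, for ribosome biogenesis in #A-59, and 0.07, for cholesterol and fatty acid synthesis in #A-59. Myc was at 162.0 and 158.0 CPM in parental cells, 59.8 and 43.7 CPM in #A-59, where it was called lower (−1.62, edgeR adjusted p = 0.00311), and 108.0 and 74.3 CPM in #B-20 (−0.81, adjusted p = 0.0997). Both clones were thus below both parental libraries, but only 1 of them passed the threshold, and the clones were not called different from each other at Myc. Same-sign values in the mitosis list were small, such as those of Cenpa, the centromeric histone (−0.43 and −0.32). Mcl1, a survival factor, had log2 fold changes of 0.53 and 0.70, and Xbp1, a factor of secretory cells, of −0.61 and −0.31.

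Of 36 interferon-stimulated genes tested, 12 were higher and 1 lower in #A-59, and 0 higher and 7 lower in #B-20, with median log2 fold changes of 0.51 and −0.80. The sensor gene Tlr7 was the 1 gene lower in both, at 34 and 22 counts in parental cells, 1 and 0 in #A-59, and 4 and 2 in #B-20, with the call lost under DESeq2 and without parental replicate 1 or either #B-20 library. Oas2, which makes the activator of RNase L, was at 5.37 and 5.73 CPM in parental cells, 29.0 and 21.0 CPM in #A-59, and 1.18 and 1.70 CPM in #B-20. The related Oasl1 was at 8.17 and 7.41 CPM, 26.0 and 16.4 CPM, and 3.15 and 2.55 CPM. Both differed between the clones, by −4.15 and −2.89 (edgeR). Of the 29 genes in opposite directions, 19 were higher in #A-59 and lower in #B-20 and 10 the reverse. Prkca, which encodes protein kinase C alpha, was at 33.6 and 29.7 CPM in parental cells, 8.82 and 9.18 CPM in #A-59, and 104.0 and 95.6 CPM in #B-20. Aldoc, an aldolase of glycolysis, Klhl22, an adaptor of a ubiquitin ligase, and Cstf2t, an RNA 3′ end processing factor, also belong to these genes.

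Shared genes occurred in every autosome and the X chromosome, from 0.706% (chromosome 16) to 3.59% (chromosome 1) of tested genes for higher and from 0.766% (chromosome 15) to 3.45% (X) for lower genes. Some lay next to each other. Fcamr, Gm15848, Pigr and Fcmr on chromosome 1 between 130784706 and 130880790, which hold the receptors of polymeric immunoglobulin and of IgM, were all lower in both clones. Plgrkt, Cd274 and Gm36043 on chromosome 19 between 29348599 and 29388095, which overlap each other, were lower as well, and Gm29695, Lemd1, Gm29630 and Gm7241 on chromosome 1 between 132188221 and 132284885 higher. The library kit does not mark strand, so that overlapping genes may share reads. An overlapping gene was found for 117 of the 234 higher and 110 of the 285 lower genes, against 42.7% of all 15318 genes tested. Genes without coordinates count here as having none, and coordinates were available for 215, 269 and 13516 genes.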

How the data were processed

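RNA-seq was analyzed from 18 libraries of 9 groups (3 genotypes at 0, 6 and 18 h of anti-IgM, 2 libraries each), grouped by their labels. The authors deposited raw counts per gene as whole numbers without normalization. The submitters' processing notes name STAR 2.5, featureCounts 1.5.0-p1, bcl2fastq 2.20.0.422 and GRCm38. Symbols were matched for 51731 of 55487 gene identifiers (93.2%), and coordinates are those of RefSeq for GRCm38.

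Genes kept by filterByExpr (15318) were fitted with edgeR 4.0.16 in R 4.3.3 as 9 group means over all 18 libraries, with TMM scaling and robust quasi-likelihood dispersions. At 6 h each clone was set against parental cells and against the other clone, and the difference at 6 h against that at 0 h. A call needed an FDR under 0.01 and an absolute log2 fold change above 1. Each group has 2 libraries, and all 9 groups share 1 estimate of the spread per gene. The p-values therefore rest on a spread between replicates pooled over all 18 libraries, not on that of the compared libraries alone. The fits were also run on counts simulated from their own dispersions. These held no GC shift between replicates and so cannot show its effect.

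Genes were named if they belong to the MiT/TFE family, are named in the study, were called in both clones within a list, ranked among the 12 most changed in each direction (mean of at least 5 CPM), ranked among 6 in opposite directions, changed between 0 and 6 h in both clones, or had the largest same-sign change of a list without shared calls. The lists and genes were chosen with earlier results of these data known, and the lists have no test of their own. Some results that this rule would name are not reported here.

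Alternatives were DESeq2 1.42.0, its size factors, other count filters, a fit of the compared libraries only, the replicate number as a block, a loess offset for GC content (span 0.5), another threshold and leaving out each 6 h library in turn.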

Additional observations from a re-analysis of the deposited data

Results flagged for a closer look

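Of the 139 genes named, 16 had a clone difference in #A-59 that was not the same at 6 h as at 0 h by the interaction test of edgeR (log2 difference at 6 h minus that at 0 h). The test called 52 of all genes tested in #A-59 (0.339%). Among the 16 are the 12 genes that were named because this test called them in both clones, so that the 2 shares cannot be compared. Negative values were those of Scd4 (−4.96), Gm6145 (−3.58), Ccr7 (−2.50), Alcam (−2.19), Prxl2a (−2.07), Lztfl1 (−1.89), Rbm47 (−1.57), Ppfibp2 (−1.53), Mreg (−1.27), Fcmr (−1.18), Celf2 (−1.09) and Irs2 (−1.02). Positive values were those of Cacna1i (1.36), Trpm5 (1.25), Gpr18 (1.24) and Siglecg (1.01).

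In #B-20 the same test called 20 of all genes tested (0.131%), among them the 12 named for it. The named genes it called numbered 14. These were Scd4 (−4.46), Kifc3 (−3.23), Gm6145 (−2.62), Alcam (−2.25), Lztfl1 (−2.09), Prxl2a (−1.81), Ppfibp2 (−1.73), Mreg (−1.36), Celf2 (−1.22), Rbm47 (−1.15), Irs2 (−1.11), Trpm5 (1.07), Cacna1i (1.22) and Ltb (1.46). Ccr7, Fcmr, Gpr18, Siglecg, Kifc3 and Ltb were called in 1 clone each, and the interactions of the 2 clones were not tested against each other.

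Between the clones at 6 h, 23 named genes differed (log2 of #B-20 minus #A-59), next to 891 (5.82%) of all genes tested. Klhl22, Aldoc, Oas2, Oasl1, Prkca and Cstf2t were named for their opposite directions, so that their difference between the clones follows from the choice. Lower in #B-20 were Klhl22 (−4.49), Aldoc (−4.41), Oas2 (−4.15), H2-Ea (−3.53), H2-Aa (−3.08), Oasl1 (−2.89), Ciita (−2.56), Itgam (−2.30), Cdhr2 (−1.86), Tec (−1.79), Il10ra (−1.71), Lgmn (−1.64) and H2-Eb1 (−1.55). Spred1 had a fitted value of −9.39, which is not bounded because both #B-20 libraries had 0 counts. Higher in #B-20 were Trib2 (1.15), Sgk1 (1.52), Dusp4 (1.57), Runx2 (1.61), Gm6145 (2.20), Nr4a3 (2.45), Pdk3 (2.73), Prkca (3.47) and Cstf2t (4.28).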

How the results depend on the processing

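Of the 99 named genes called in both clones, 69 kept their call in every setting in which they were tested and 30 lost it in at least 1. With only the compared libraries, H2-M3, Itgam, Madcam1, Dusp4, Nfkbie, Tnfrsf11a, Cd84 and Dll1 lost their calls. The shared set then held 434 genes, among them 428 of the 519, and under DESeq2 449 genes, among them 445. With a filter of at least 10 counts in every library compared, the shared set fell to 322 genes. At an FDR under 0.05 without a fold threshold it rose to 1867, with 5152 in #A-59, 3598 in #B-20, 4911 between the clones, and 281 (#A-59) and 87 (#B-20) whose difference changed between 0 and 6 h. These changed genes were the least stable count. In #A-59 they numbered 81 under DESeq2, 107 without a count filter and 34 with only the compared libraries, and in #B-20 34 under DESeq2 and 65 without a filter. When single 6 h libraries were left out, counts were 16 (without parental replicate 2) to 104 (without #A-59 replicate 2) in #A-59, 8 (without #B-20 replicate 2) to 30 in #B-20, and 565 (without #A-59 replicate 1) to 1155 between the clones. In those fits a group of 1 library is assumed to vary like the others. The shared set then held 402 to 477 genes. Bcl2l1 in #B-20, not called, turned from −0.05 to 0.0822 with the GC correction, 0.0811 with GC correction and replicate block, and lay between −0.209 and 0.106 when single libraries were left out.

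Replicate numbers are shared between groups, and deviations of same-numbered libraries correlated with r = 0.19, 0.109 and 0.112 across 8936 genes, but no label ties a number to an experiment, so the libraries were taken to share only a number. With the replicate block the shared set held 537 genes, among them 514 of the 519, 34 genes changed between 0 and 6 h in #B-20, and 18 changed in both clones, among them the 12 described. With GC correction and replicate block, #A-59 had 85 such genes and #B-20 had 34. Depth limits genes with few counts, where a clone without reads allows only a lower bound.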
